A study of Mus musculus with 6 samples.

Results

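The genes described here encode subunits of the oxidative phosphorylation machinery, the 4 respiratory chain complexes and the ATP synthase of the inner mitochondrial membrane. They were taken by symbol from the array annotation: the Nduf genes of complex I, the Sdh genes of complex II, the Uqcr genes of complex III, the genes of cytochrome c oxidase subunits 4 to 8 (complex IV) and the Atp5 genes of the ATP synthase (complex V). Of 79 matching symbols, 77 had a probe set assigned to 1 gene and were measured among 19937 genes in all, 34 in complex I, 4 in complex II, 8 in complex III, 14 in complex IV and 17 in complex V. The other two, Cox7c and Ndufb4, shared their probe sets with another gene and were not analysed. Cox4i1 and Cyc1, which also encode subunits, carry symbols outside this selection and are given with the related genes. Ndufa4 was counted in complex I by its symbol, although its product is now placed in complex IV.

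RNA of a mouse embryonic stem cell line of V6.5 origin was hybridised to 6 Affymetrix arrays, 1 sample each. All cells carried a biotin-acceptor and FLAG tag knocked into Ctnnb1, the β-catenin gene, and expressed the biotin ligase BirA, in medium with serum and the cytokine LIF and with feeder cells from DR4 mice. In 1 group of 3 arrays the cells had received CHIR99021 at 3 µM for 24 h, an inhibitor of GSK3 known to raise β-catenin. In the other group of 3 they had received XAV939 for 24 h, an inhibitor of tankyrase known to lower it. The dose of XAV939 was 3 µM in the sample labels and 1 µM in the treatment protocol. No untreated arrays were analysed here, so a difference cannot be assigned to either compound. The labels do not say whether the arrays of a group came from separate cultures, and p-values may therefore measure technical spread only.

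In oxidative phosphorylation, complexes I and II pass electrons from NADH and succinate to ubiquinone, complex III passes them on to cytochrome c, and complex IV delivers them to oxygen. Complexes I, III and IV pump protons, and complex V uses the return of the protons to make ATP. Most subunits are encoded in the nucleus and a few in mitochondrial DNA. Embryonic stem cells are known for high glycolysis beside an active respiratory chain, and the transcription factors NRF1, GABPA and YY1 are known regulators of nuclear respiratory genes.

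The promoter sequence of these genes is described first, because the selection by name did not use it. The motifs were chosen with earlier results of these data known. Promoter windows of 300 bases (250 before to 50 after the start site) from RefSeq, build GRCm38.p6, were matched by gene identifier to 65 of the 77 genes, which had 70 windows. Both strands were searched for GCGC repeated after any 2 bases (NRF1), CCGGAAG (GABPA and other ETS factors), AAGATGGC (YY1), TCAAGGTCA (oestrogen-related receptors, Esrrb among them) and CTTTGAT (TCF/LEF factors, the DNA-binding partners of β-catenin). The 57 matches in these windows held 0 pairs of different motifs that started within 10 bases of each other. Promoters are printed for the related pair Cox6b1 and Cox6b2, for Ndufv2, and for Cox6a1 and Sdhd as examples with several matches. Each is the 250 bases before the start site, 5′ to 3′ on the gene's strand, with matches in capitals. They lie at chr7:30626115-30626364 (minus strand), chr7:4753095-4753344 (minus strand), chr17:66101560-66101809 (minus strand), chr5:115348959-115349208 (minus strand) and chr9:50603850-50604099 (minus strand).
Cox6b1: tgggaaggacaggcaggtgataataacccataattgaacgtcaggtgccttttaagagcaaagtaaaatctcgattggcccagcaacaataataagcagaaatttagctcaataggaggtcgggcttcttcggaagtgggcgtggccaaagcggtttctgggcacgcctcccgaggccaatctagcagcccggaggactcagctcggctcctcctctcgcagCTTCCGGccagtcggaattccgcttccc
Cox6b2: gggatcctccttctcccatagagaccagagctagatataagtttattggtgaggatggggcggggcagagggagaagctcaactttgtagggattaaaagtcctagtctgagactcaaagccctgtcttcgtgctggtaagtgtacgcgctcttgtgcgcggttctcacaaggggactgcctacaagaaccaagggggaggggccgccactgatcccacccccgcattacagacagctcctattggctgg
Ndufv2: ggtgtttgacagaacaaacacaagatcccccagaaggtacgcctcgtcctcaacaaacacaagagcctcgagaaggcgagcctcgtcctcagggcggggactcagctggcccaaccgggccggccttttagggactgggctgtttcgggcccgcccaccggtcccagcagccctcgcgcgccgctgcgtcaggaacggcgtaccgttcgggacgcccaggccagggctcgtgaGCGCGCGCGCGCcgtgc
Cox6a1: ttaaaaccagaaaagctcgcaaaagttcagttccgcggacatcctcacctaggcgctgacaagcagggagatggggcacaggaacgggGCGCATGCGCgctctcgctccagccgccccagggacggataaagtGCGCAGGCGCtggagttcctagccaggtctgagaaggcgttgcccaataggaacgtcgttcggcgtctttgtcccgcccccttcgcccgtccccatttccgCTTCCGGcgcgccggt
Sdhd: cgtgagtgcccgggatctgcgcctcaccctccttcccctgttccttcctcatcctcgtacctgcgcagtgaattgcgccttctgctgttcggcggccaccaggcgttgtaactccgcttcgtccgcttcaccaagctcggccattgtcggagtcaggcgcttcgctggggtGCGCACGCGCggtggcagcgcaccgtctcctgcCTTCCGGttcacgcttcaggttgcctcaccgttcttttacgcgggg

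In Cox6b1 the capitals mark an ETS match on the opposite strand, whose first base lies 28 bases before the start. Cox6b2 had no match in its window. In Ndufv2 they mark overlapping NRF1 matches that begin 17 and 15 bases before the start, in a run of alternating G and C. Cox6a1 held NRF1 matches at 162 and 117 bases and an ETS match at 16 bases before the start. Sdhd held an NRF1 match at 79 and an ETS match at 46 bases before the start, and an oestrogen-related receptor match 37 bases after it, outside the printed stretch.

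Matches to the NRF1 motif stood in 25.7% of the subunit gene windows, against 8.57% of windows of protein-coding genes and 6.23% of all windows. The ETS motif stood in 24.3%, against 11.6% and 8.86%, and the YY1 motif in 14.3%, against 3.05% and 2.75%. At least 1 of these motifs was present in 55.7% of subunit gene windows and in 20.7% of protein-coding windows. The GC content was similar, with medians of 57.5% and 56.3%. The oestrogen-related receptor motif was in 2 windows (Atp5g3 and Sdhd), or 2.86%, against 0.334% of protein-coding windows. The TCF/LEF motif was in 1 window (Ndufa5), or 1.43%, against 3.22%. The backgrounds were not matched by expression level, and only 4 of the 77 subunit genes lay under the median level of all probe sets. These shares are descriptions of letters in a window, not of binding.

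**Figure D1:**
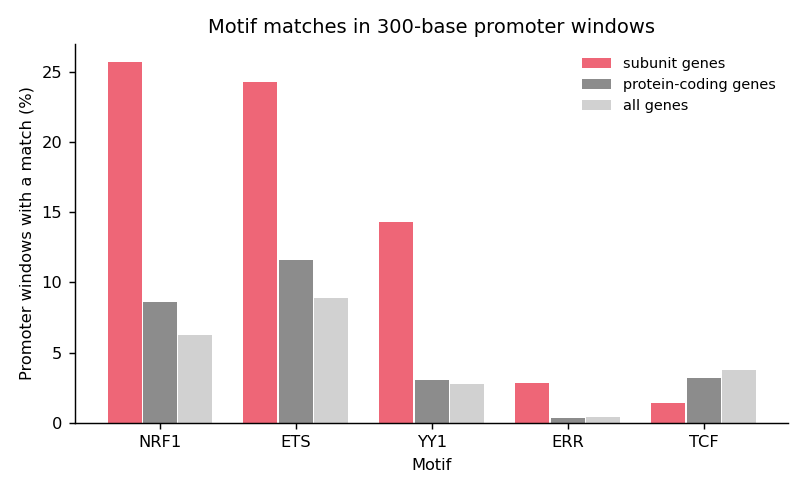
Share of 300-base promoter windows (%) that hold each motif on either strand, for 70 windows of subunit genes, 21262 of protein-coding genes and 32851 of all genes. The bars for NRF1 (25.7%), ETS (24.3%) and YY1 (14.3%) stand above both backgrounds, and that for TCF (1.43%) stands below.

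The arrays had median log2 levels of 5.67 to 5.71 and Pearson correlations across genes of 0.997 to 0.999 within and 0.994 to 0.995 between treatments. Axin2, a β-catenin target used to check the labels, was at 7.48, 7.41 and 7.54 with CHIR99021 and at 5.46, 5.79 and 5.46 with XAV939. The stem cell markers were present: the list of 8 averaged 10.96 to 11.01 per array with CHIR99021 and 11.08 to 11.11 with XAV939. On the second principal component of all genes (17.5% of the variance) XAV939 replicate 1 stood apart at -13.15 from replicates 2 and 3 (5.95 and 6.78). CHIR99021 replicate 3 stood at -4.70 against 2.65 and 2.48, and results on the subunit genes that change without these arrays are given both ways.

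Subunit gene transcripts differed little between the treatments. With limma and a Benjamini-Hochberg adjusted p below 0.05 as threshold, 6 of the 77 genes (7.79%) were higher in CHIR99021 and 0 were lower. Among all genes 5.31% were higher, 4.34% lower and 9.65% either, so the share that rose was near the background. By limma's unadjusted p under 0.05, 15 subunit genes were higher and 0 lower, where all genes gave 11.2% and 9.4%. The genes that rose were Cox6b2, Cox6b1 and Cox5a of complex IV, Uqcr10 of complex III, and Ndufb9 and Ndufv2 of complex I. No gene of complex II or V passed. With 1 array left out the count was 5 without XAV939 replicate 1, 3 without CHIR99021 replicate 1, and 2 without any one of the remaining arrays. Without both arrays that stood apart it was 4.

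The differences were small. The median over the 77 genes was 0.058 on the log2 scale (1.04-fold), from -0.11 to 0.47, against 0.0066 for all genes. Only Cox6b2 exceeded a log2 difference of 0.3 in either direction (1.3% of subunit genes, against 6.54% of all genes). For 61 of the 71 genes that did not pass, the 95% interval of the difference lay between -0.3 and 0.3. Most of the small differences had the same sign: 65 of the 77 genes (84.4%) had a positive value, against 53% of all genes and 49.9% of the 2598 genes whose level lay within 1 log2 unit of the subunit genes' median. For 23 the CHIR99021 values lay above the XAV939 values in every array (14.1% of all genes), and for 0 below (11% of all genes). Of the 2598 genes of similar level, 505 lay above and 439 below in every array. In limma 7.58% of those 2598 passed upward and 6.7% downward, and 403 were higher and 386 lower by its unadjusted p under 0.05. Without CHIR99021 replicate 3, 72.7% of subunit genes were positive and the median was 0.045. The genes share arrays and are not independent, so no test was made over them.

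**Figure D2:**
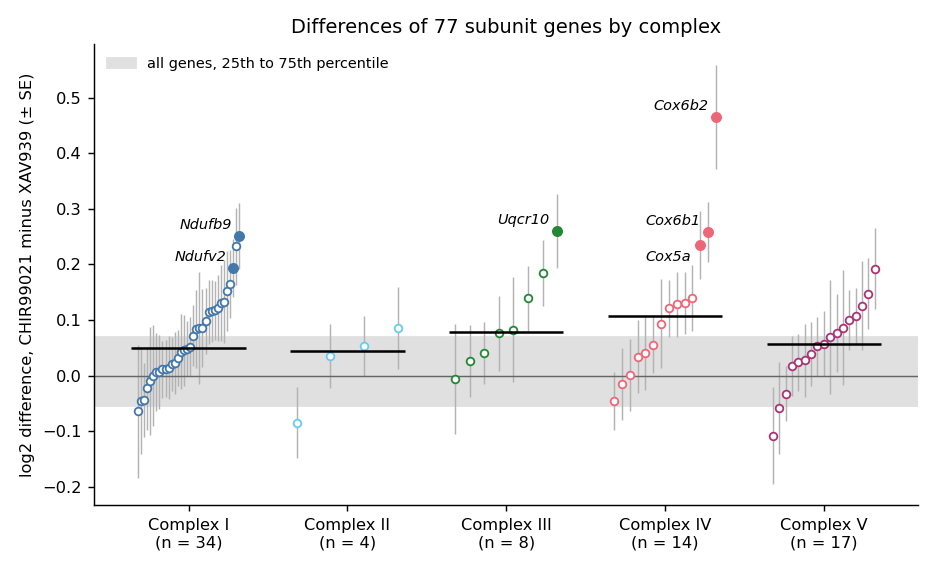
Log2 difference, CHIR99021 minus XAV939, with its standard error for each of 77 subunit genes, sorted within complexes I to V. Filled and named points are the 6 genes past the threshold, black lines are medians of each complex, and the grey band holds the middle of all 19937 genes (-0.055 to 0.069). Points lie mostly just above 0, with Cox6b2 (0.47) the highest.

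Array by array, the median deviation of the subunit genes from each gene's mean was 0.015, 0.026 and 0.086 in CHIR99021 replicates 1 to 3, and -0.036, -0.026 and -0.029 in XAV939 replicates 1 to 3. All genes gave -0.0065, -0.0027 and 0.018, then 0.0018, -0.012 and -0.0026. The median over all subunit genes was thus slightly positive in every CHIR99021 array, and highest in replicate 3. The complexes differed in this. In complex I the median was 0.00072 and 0.00062 in CHIR99021 replicates 1 and 2, and 0.10 in replicate 3. It was -0.0012 for complex V in CHIR99021 replicate 1 and -0.0097 for complex II in CHIR99021 replicate 3. In complexes III and IV it was positive in every CHIR99021 array.

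Complex I, the NADH dehydrogenase, is built from catalytic core subunits that carry the flavin and iron-sulphur clusters, and from many accessory subunits. Of its 34 measured genes 2 rose (5.88%, against 5.31% of all genes) and none fell. The median difference was 0.050, the range was -0.064 to 0.25, and 29 genes were positive. For 10 the CHIR99021 values lay above without overlap (14.1% of all genes). The median deviation in complex I was 0.00072 and 0.00062 in CHIR99021 replicates 1 and 2, and 0.10 in replicate 3. Ndufb9, an accessory subunit of the membrane arm, was at 9.06, 9.19 and 9.24 with CHIR99021 and at 8.92, 8.92 and 8.90 with XAV939. The groups did not overlap, and the spread was wider with CHIR99021. The difference was 0.25 ± 0.06 (SE, 1.19-fold, adjusted p = 0.0217). It was not past the threshold without CHIR99021 replicate 2 (adjusted p = 0.0968) or 3 (0.0767), XAV939 replicate 2 (0.0611) or 3 (0.077), or both arrays that stood apart (0.0596).

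Ndufv2, a core subunit that holds an iron-sulphur cluster next to the flavin site, was at 10.27, 10.21 and 10.33 with CHIR99021 and at 10.06, 10.08 and 10.10 with XAV939. Here too the groups did not overlap. The difference was 0.19 ± 0.05 (SE, adjusted p = 0.0445), the weakest of the calls. It was lost with any 1 array left out (adjusted p = 0.0676 without XAV939 replicate 1 to 0.131 without CHIR99021 replicate 3) and without both arrays that stood apart (0.108). Each array centred on its median also ended the call (0.0563).

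Ndufs4, an accessory subunit whose loss is known to cause Leigh syndrome in humans, just missed the threshold. Its values were 9.82, 10.01 and 9.93 with CHIR99021 and 9.58, 9.78 and 9.70 with XAV939, and all 3 of the former lay above all of the latter. The difference of 0.23 ± 0.07 (SE, adjusted p = 0.0672) had a wider error than that of Ndufv2. It passed after repeated quantile normalisation (0.0447) and with genes of low level left out (0.0497). Ndufb11, an accessory subunit of the membrane arm, differed by 0.17 (adjusted p = 0.145) on the probe set used. Its other probe set gave 0.26, with an adjusted p of 0.026 over all single-gene probe sets.

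Other core genes of complex I did not pass. Ndufs8, which carries iron-sulphur clusters, differed by 0.11 (95% interval -0.013 to 0.24, adjusted p = 0.305), without overlap between the groups. Ndufv1, which binds the flavin, differed by 0.052 (95% interval -0.066 to 0.17). Ndufs7, which carries the last iron-sulphur cluster before ubiquinone, differed by 0.022 (-0.10 to 0.15). Ndufs1, the largest subunit, was at 10.28, 10.28 and 10.24 with CHIR99021 and at 10.11, 10.34 and 10.42 with XAV939. Its XAV939 values surrounded those of CHIR99021, and the difference was -0.023 (-0.19 to 0.14). Without XAV939 replicate 2 or 3 its sign turned (0.0006 and 0.042), and so did that of Ndufs7 without CHIR99021 replicate 2 (-0.023).

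Complex II, succinate dehydrogenase, is the only complex of the chain that is also an enzyme of the citric acid cycle and is encoded entirely in the nucleus. None of its 4 genes passed and the groups overlapped for each. Sdha, the flavoprotein that oxidises succinate, was at 10.89, 10.83 and 10.73 with CHIR99021 and at 10.58, 10.78 and 10.83 with XAV939, a difference of 0.086 ± 0.073 (SE). It was 0.012 without XAV939 replicate 1 and 0.13 without CHIR99021 replicate 3. Sdhb, the iron-sulphur subunit, differed by 0.053 (95% interval -0.066 to 0.17). The membrane anchors Sdhc and Sdhd differed by -0.085 (-0.23 to 0.057) and 0.034 (-0.093 to 0.16). Of the 4 genes 3 were positive and 1 negative, and each 95% interval held 0.

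Complex III, the cytochrome bc1 complex, had 1 gene that rose among 8 measured (12.5%, against 5.31% of all genes). Its median difference was 0.079, and 7 genes were positive. For 3 the CHIR99021 values lay above without overlap (14.1% of all genes). Uqcr10, one of its small subunits, was at 8.34, 8.29 and 8.49 with CHIR99021 and at 8.17, 8.14 and 8.03 with XAV939. The groups did not overlap, and CHIR99021 replicate 3 was the highest array. The difference was 0.26 ± 0.07 (SE, adjusted p = 0.035). The call was lost without CHIR99021 replicate 1 (adjusted p = 0.0812) or 3 (0.109) and without XAV939 replicate 2 (0.0785) or 3 (0.133).

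The core proteins of complex III came next. Uqcrc2 was at 10.93, 10.96 and 10.92 with CHIR99021 and at 10.64, 10.82 and 10.79 with XAV939, a difference of 0.18 ± 0.06 (SE, adjusted p = 0.0881). Uqcrc1 was at 11.30, 11.36 and 11.31 against 11.09, 11.26 and 11.21, a difference of 0.14 ± 0.06 (SE, adjusted p = 0.212). Neither overlapped between treatments, in both XAV939 replicate 1 was the lowest array, and neither passed. Uqcrfs1, the Rieske iron-sulphur protein, differed by 0.076 (95% interval -0.074 to 0.23).

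Complex IV, cytochrome c oxidase, had the highest median (0.11) and 3 of its 14 genes rose (21.4%, against 5.31% of all genes). For 12 genes the difference was positive, and for 7 the CHIR99021 values lay above without overlap (14.1% of all genes). Cox6b2 encodes the testis form of subunit 6B, which faces the intermembrane space. It was at 7.11, 7.11 and 7.32 with CHIR99021 and at 6.91, 6.69 and 6.54 with XAV939, without overlap. The difference was 0.47 ± 0.09 (SE, 1.38-fold, adjusted p = 0.00947). This was the only call that held in all 13 alternatives (adjusted p 0.00182 to 0.0447, differences 0.38 to 0.56).

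Cox6b1, the widely expressed form of the same subunit, was at 10.08, 10.10 and 10.10 with CHIR99021 and at 9.91, 9.84 and 9.77 with XAV939. Its CHIR99021 values were nearly equal and lay above all XAV939 values. It rose by 0.26 ± 0.05 (SE, adjusted p = 0.0128). The call held in 11 of 13 alternatives and was lost without CHIR99021 replicate 2 (adjusted p = 0.061) or XAV939 replicate 3 (0.0575). Both forms of subunit 6B thus rose.

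Cox5a, a nuclear subunit on the matrix side, was at 9.83, 9.75 and 9.91 with CHIR99021 and at 9.68, 9.54 and 9.56 with XAV939. It rose by 0.24 ± 0.06 (SE, adjusted p = 0.0384), and the groups did not overlap. The call was lost without any one CHIR99021 array (adjusted p = 0.115, 0.0518 and 0.128 for replicates 1 to 3) and without XAV939 replicate 2 (0.138) or 3 (0.129). Cox5b, the zinc-binding subunit on the matrix side, differed by 0.055 (95% interval -0.056 to 0.17).

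**Figure D3:**
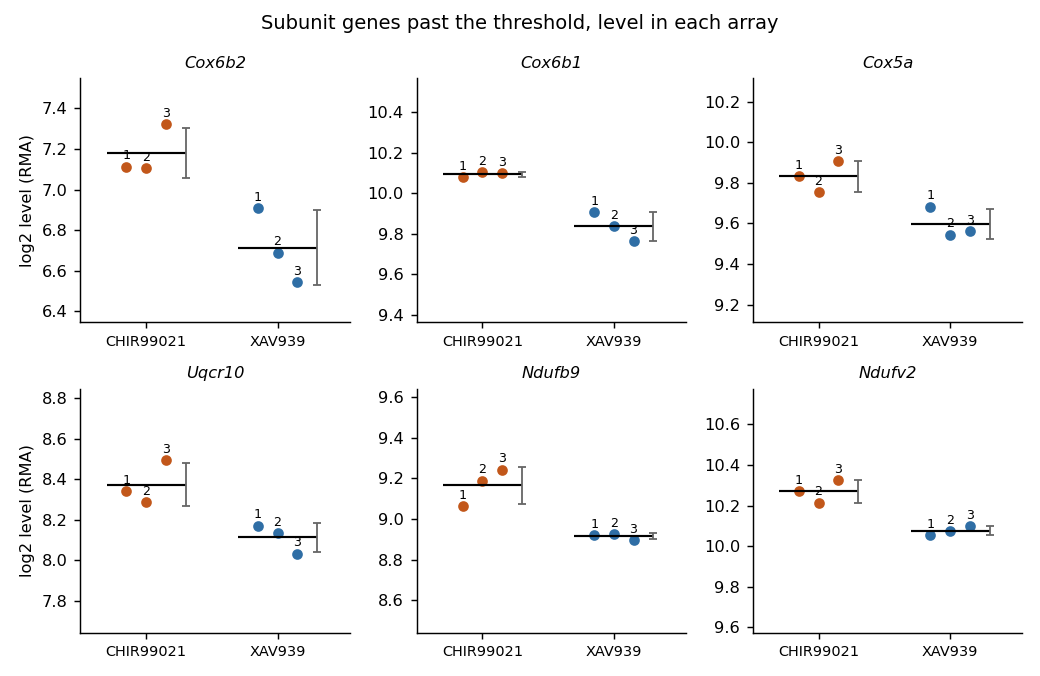
RMA log2 level of the 6 subunit genes past the threshold in each array, numbered by replicate, with the mean (line) and SD (bar) of 3 arrays; every panel spans 1.2 log2 units. In each panel the 3 CHIR99021 arrays lie above the 3 XAV939 arrays, with the widest gap between means for Cox6b2 (7.18 and 6.71).

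Several other complex IV subunits exist as a widely expressed and a tissue-restricted form. For subunit 7A, Cox7a2, the widely expressed form, differed by 0.12 ± 0.05 (SE, adjusted p = 0.219) and Cox7a1, the heart and muscle form, by 0.14 ± 0.06 (SE, adjusted p = 0.214). Neither passed, although the groups did not overlap for Cox7a2. For subunit 6A, Cox6a1 differed by 0.093 (95% interval -0.085 to 0.27) and the muscle form Cox6a2 by 0.00063 (-0.14 to 0.15). Cox7b differed by 0.13 (0.0066 to 0.25, adjusted p = 0.214) and the testis form Cox7b2 by -0.045 (-0.16 to 0.07). For subunit 8, Cox8a differed by 0.040, the muscle form Cox8b by 0.034 and the testis form Cox8c by -0.015. Cox6a2, Cox7b2, Cox8b and Cox8c had levels under 5.68, the median over all probe sets, and no detection call was available here. The signs of Cox6a2, Cox8a, Cox8b and Cox8c turned when single arrays were left out, and that of Cox6a2 also when arrays were rescaled.

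**Figure D4:**
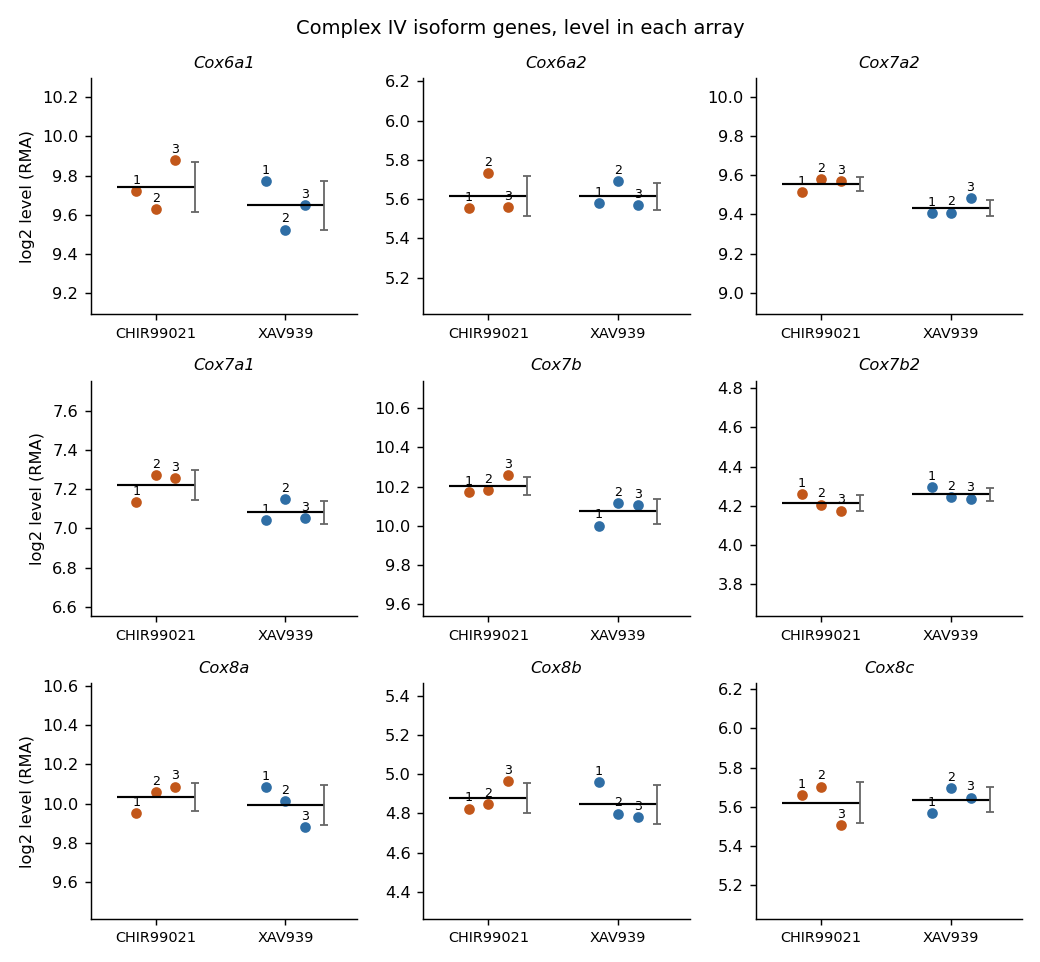
RMA log2 level of complex IV isoform genes in each array, numbered by replicate, with the mean (line) and SD (bar) of 3 arrays; every panel spans 1.2 log2 units. Mean levels of Cox7a2 were 9.55 with CHIR99021 and 9.43 with XAV939, and none of the 9 genes passed the threshold.

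Complex V, the ATP synthase, consists of a catalytic head, a rotating ring of subunit c, a central and a peripheral stalk, and small membrane subunits. None of its 17 genes passed (9.65% of all genes did), and the median difference was 0.058. For 14 genes the difference was positive, and for 3 the CHIR99021 values lay above without overlap (14.1% of all genes). Atp5a1 and Atp5b encode the α and β subunits of the head, where ATP is made. Atp5b was at 12.60, 12.58 and 12.52 with CHIR99021 and at 12.49, 12.57 and 12.60 with XAV939, and the groups overlapped. Its difference was 0.017 (95% interval -0.10 to 0.14; -0.013 without XAV939 replicate 1), and that of Atp5a1 was -0.033 (-0.14 to 0.079). Atp5c1, the γ subunit of the central stalk, differed by 0.058 (-0.072 to 0.19).

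The largest values in complex V were those of Atp5mpl, a small membrane subunit (0.19 ± 0.07, SE, adjusted p = 0.153), and Atp5j, a peripheral stalk subunit (0.15 ± 0.06, SE, adjusted p = 0.226). Atp5mpl was at 10.47, 10.38 and 10.52 with CHIR99021 and at 10.19, 10.18 and 10.42 with XAV939, and overlapped through XAV939 replicate 3. Without that array it differed by 0.27 (adjusted p = 0.038).

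Subunit c of the ring is encoded by Atp5g1, Atp5g2 and Atp5g3, whose precursors yield the same mature protein. Atp5g1 differed by 0.052 (95% interval -0.064 to 0.17) and Atp5g3 by 0.11 (-0.0061 to 0.22). Atp5g2 was at 11.15, 11.15 and 11.44 with CHIR99021 and at 11.48, 11.33 and 11.26 with XAV939, and overlapped because of CHIR99021 replicate 3. Its difference was -0.11 (-0.30 to 0.086), -0.21 without CHIR99021 replicate 3 and -0.046 without XAV939 replicate 1. Its other two probe sets gave -0.015 and -0.35, the latter with an adjusted p of 0.0286 over all single-gene probe sets. Of the 77 genes 15 had more than 1 probe set, and Atp5g2 and Ndufb11 were the ones where a probe set that was not used passed. Several genes of this family are known to have near-identical processed copies elsewhere in the genome, and their probe sets may also have measured those, which makes their values uncertain.

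The subunit genes also varied together within treatments. In XAV939 replicate 1 against replicates 2 and 3, Atp5k differed by 0.38, Atp5l by 0.34, Cox6b2 by 0.29, Uqcrq by 0.27 and Ndufa6 by 0.23, while Ndufs1 differed by -0.26, Sdha by -0.22, Uqcrb by -0.21 and Uqcrfs1 by -0.20. In CHIR99021 replicate 3 against replicates 1 and 2, Uqcrq differed by 0.30, Ndufa6 by 0.32, Cox6b2 by 0.21, Atp5k by 0.18, Atp5l by 0.12, Sdha by -0.13 and Uqcrfs1 by -0.099, while Ndufs1 (-0.036) and Uqcrb (-0.022) were near 0. Atp5md, a small membrane subunit of complex V, differed by -0.20 in the former array and by 0.11 in the latter. Ndufs6, an accessory subunit of complex I, was the highest in CHIR99021 replicate 3 (0.48). Atp5k, Atp5l, Uqcrq, Ndufa6 and Uqcrb encode small subunits, and Ndufs1, Sdha and Uqcrfs1 encode subunits that carry redox cofactors. These genes were picked after their values were seen. Atp5l had 5 probe sets and Atp5md and Uqcrb had 3 each, and only the deviations of the probe set used are given.

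Across the 77 genes the deviation of one array followed that of the other (Pearson r = 0.57, Spearman rho = 0.56), more than across all 19937 genes (0.18 and 0.15). Both arrays were picked for standing on the same side of the second component of all genes. That choice favours a positive correlation and shared signs. Other pairs of arrays also varied together: the deviations of CHIR99021 replicate 2 and XAV939 replicate 2 from their groups had r = 0.52 over these genes, and the 9 pairs ranged from -0.52 to 0.57. Deviations within a group of 3 depend on each other. The points share arrays and normalisation and genes are not independent, so no p is given. Both deviations were positive for 35 genes and negative for 16, the same sign in 66.2% of subunit genes against 54.3% of all genes. The deviation of XAV939 replicate 1 was larger in size than the treatment difference for 47 of the 77 genes (61%; 56.9% of all genes). A difference of 1 array against 2 varies more by noise than one of 3 against 3. These shares therefore do not weigh the array against the treatment. In a principal component analysis of the subunit genes the first component (46.5% of the variance) set CHIR99021 replicate 3 (-1.12) against XAV939 replicates 2 and 3 (0.65 and 0.60) and left the other three near 0. The first component of all genes (60.5%) separated the treatments. The cause of the shared deviation was not tested.

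**Figure D5:**
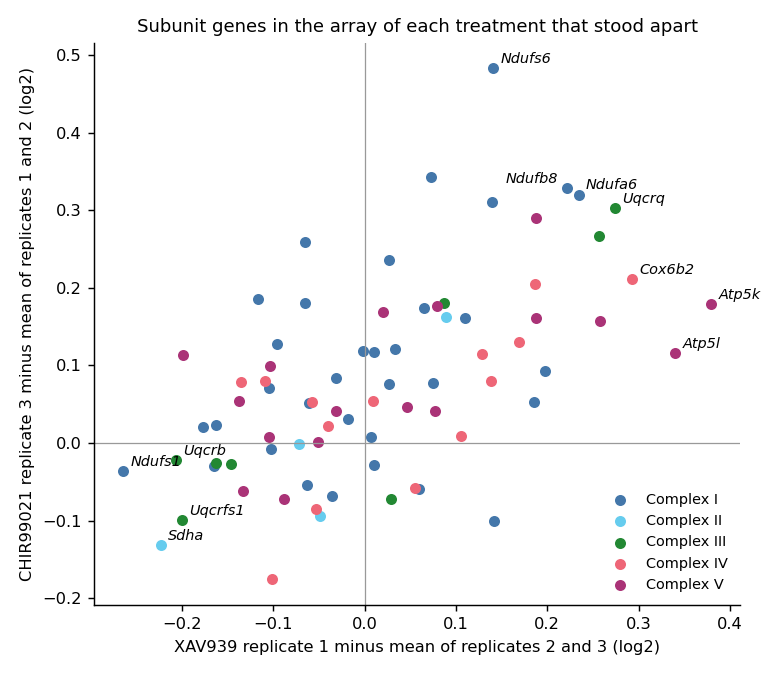
Log2 deviation of XAV939 replicate 1 from the mean of replicates 2 and 3 (horizontal) against that of CHIR99021 replicate 3 from the mean of replicates 1 and 2 (vertical), 1 point per subunit gene, coloured by complex. Points run from Sdha (-0.22, -0.13) at the lower left to Ndufa6 (0.23, 0.32) and Atp5k (0.38, 0.18) at the right.

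Genes with and without a motif match both had small differences. The 17 genes with an NRF1 match had a median difference of 0.069 and the 48 without one 0.076. For the ETS motif the medians were 0.069 and 0.074, and for YY1 0.099 with a match (10 genes) and 0.069 without. Of the genes that rose, Ndufv2 held an NRF1 match and Cox6b1 an ETS match, Cox6b2, Cox5a and Uqcr10 held none of the motifs searched, and Ndufb9 had no window in the table.

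The genes around these complexes were described by list. Of 9 measured subunit and electron carrier genes with other symbols none passed in limma (9.65% of all genes did). By unadjusted p under 0.05, 1 was higher and 0 lower (11.2% and 9.4% of all genes). Cox4i1, the main form of complex IV subunit 4, differed by 0.058 (95% interval -0.068 to 0.18). Cyc1, the other subunit gene named at the start, differed by 0.019 (-0.10 to 0.14, adjusted p = 0.92). Cycs, the cytochrome c that carries electrons from complex III to IV, was at 10.72, 10.64 and 10.84 with CHIR99021 and at 10.42, 10.56 and 10.54 with XAV939, a difference of 0.23 ± 0.07 (SE, adjusted p = 0.0554). It did not overlap and lay just outside the threshold, and passed when the arrays were quantile normalised again (0.0368), when genes of low level were left out (0.0418) and with a variance trend (0.0344). It was 0.135 (adjusted p = 0.17) without both arrays that stood apart.

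Of 42 measured assembly factors for the complexes, 1 rose and 1 fell (2.38% each, against 5.31% and 4.34% of all genes), and the median was 0.050. Ndufaf5, which hydroxylates an arginine of Ndufs7, was at 6.33, 6.35 and 6.27 with CHIR99021 and at 5.99, 6.03 and 6.13 with XAV939, and rose by 0.27 ± 0.06 (SE, adjusted p = 0.0141). It no longer passed when CHIR99021 replicate 1 (0.0603), CHIR99021 replicate 2 (0.0735) or XAV939 replicate 2 (0.0535) was left out. Ecsit, a complex I assembly factor that also acts in Toll-like receptor signalling, was at 8.16, 8.24 and 8.32 with CHIR99021 and at 8.55, 8.48 and 8.55 with XAV939, and fell by 0.28 (adjusted p = 0.00975) without overlap. For the other complexes the smallest p belonged to Sdhaf3 (0.12, adjusted p = 0.401), Bcs1l (0.17, adjusted p = 0.0614), Cox18 (0.17, adjusted p = 0.0883) and Tmem70 (0.22, adjusted p = 0.0537). Tmem70, an ATP synthase assembly factor, passed without XAV939 replicate 1 (0.046), without CHIR99021 replicate 3 (0.0445) or without both (0.0239). It also passed with genes of low level left out (0.0412). Its adjusted p was higher without CHIR99021 replicate 1 (0.149) or 2 (0.218), without XAV939 replicate 2 (0.098) and after repeated quantile normalisation (0.1015).

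None of 16 citric acid cycle genes passed in limma (9.65% of all genes did). Idh2, a mitochondrial isocitrate dehydrogenase, had the smallest p (0.13, adjusted p = 0.135). None of 9 carrier and uncoupling genes passed either, with the smallest p for Ucp3 (-0.076, adjusted p = 0.625). By unadjusted p under 0.05, 1 citric acid cycle gene was higher and 1 lower (11.2% and 9.4% of all genes), and 0 of the carrier genes were either. Of 15 regulators of mitochondrial biogenesis, 1 rose (6.67%, against 5.31% of all genes), the orphan nuclear receptor Esrrb. It was at 9.79, 9.84 and 9.99 with CHIR99021 and at 9.33, 9.27 and 9.22 with XAV939 (0.60 ± 0.06, SE, adjusted p = 1.66e-04). The list's median was -0.024, and 10 of its 15 genes were negative. Nrf1, Gabpa and Yy1 encode the factors named above as regulators of nuclear respiratory genes. Nrf1 differed by -0.072 (95% interval -0.19 to 0.050), Gabpa by 0.0036 (-0.16 to 0.17) and Yy1 by -0.0065 (-0.13 to 0.12). None of them passed, and the groups overlapped for each. The 13 genes encoded in mitochondrial DNA were not analysed here.

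Some markers of other cells moved beside these results. Of 12 feeder fibroblast markers 5 rose (41.7%, against 5.31% of all genes) and 0 fell. Those that rose were Col1a1 (1.05), Tagln (0.67), Pdgfrb (0.59), Col1a2 (0.40) and Acta2 (0.35). The other 7 did not pass, among them Col3a1 (0.096), Col6a1 (0.0055) and Thy1 (-0.079). The list averaged 6.58 to 6.61 per array with CHIR99021 and 6.26 to 6.36 with XAV939, and 4 of its genes (Lum, Dcn, Postn and Pdgfra) had levels under 5.68. Of 8 muscle markers only Actc1 rose (1.13, adjusted p = 1.21e-04), and the list averaged 5.995 to 6.04 per array with CHIR99021 and 5.80 to 5.93 with XAV939. The other 7 did not pass. Ckm (0.23), Tnnt2 (0.11), Myl2 (0.062) and Des (0.025) were positive, and Myh6 (-0.12), Myh7 (-0.053) and Myod1 (-0.018) were negative. The part of the feeder and muscle markers in the subunit gene differences was not tested. In bulk RNA, a change in the share of a cell type and a change in RNA per cell cannot be told apart. Of the 8 stem cell markers 2 rose and 3 fell (25% and 37.5%, against 5.31% and 4.34% of all genes). Among those that passed were Nanog (0.49), Zfp42 (0.25), Tdgf1 (-0.63) and Utf1 (-0.67). Zfp42 (adjusted p = 0.0212) no longer passed without CHIR99021 replicate 1 (0.0782) or 3 (0.0747), without XAV939 replicate 2 (0.0691), or without both arrays that stood apart (0.0714).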

How the data were processed

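RNA of 6 samples was labelled from 300 ng per array with Affymetrix whole-transcript kits, per the labels' protocols. The authors deposited 1 log2 value per probe set and array, from RMA, per the submitters' processing notes. Neither its version nor a genome build is named in the sources used here. Scanner files were not used here, so there is no detection call or batch, and the number of arrays limits precision. Since probes differ in affinity, levels of different genes can be compared only roughly. They were compared only to mark or leave out genes of low level, to pick genes of similar level and to call the stem cell markers present.

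Of 34760 probe sets, 21640 named 1 gene in the platform annotation, 1321 several and 11799 none. Each gene took its probe set with the highest mean, which gave 19937 genes. limma 3.58.1 (R 4.3.3, lmFit and eBayes defaults, 4 residual and 6.15 prior degrees of freedom) compared CHIR99021 minus XAV939 over all genes, with Benjamini-Hochberg adjustment at 0.05. It was tested on simulated data. With 3 arrays a group an exact permutation test reaches at best p = 0.1, and none was used. The members, lists, motifs and tests were chosen with earlier results of these data known. Named genes were the members past the threshold, the 2 largest differences per complex, central and isoform genes, and Axin2. Per list, up to 4 past the threshold were named (otherwise the smallest p). Ndufb11, the genes of the array contrasts, Nrf1, Gabpa and Yy1 were added after their values were seen. Alternatives were array centring, repeated quantile normalisation, averaging probe sets, leaving out low genes, a variance trend, a replicate block and leaving out each array, plus leaving out CHIR99021 replicate 3 and XAV939 replicate 1 together, chosen after seeing the data. Plots used matplotlib 3.10.9.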

Additional observations from a re-analysis of the deposited data

How the results depend on the processing

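The count of subunit genes past the threshold upward was 6. It was 4 to 7 in the alternatives that kept all arrays, 2 to 5 with 1 array left out and 4 without both arrays that stood apart. The count downward was 0 in all 13 alternatives. The median difference of 0.058 was 0.045 to 0.074 in them. A fit without an array has fewer samples, and the count over all genes was 726 to 1130 higher genes (1058 with all arrays) and 528 to 1117 lower genes (866), with 573 without CHIR99021 replicate 1 and 528 without CHIR99021 replicate 2.

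The labels do not say whether same-numbered arrays were paired. Their deviations correlated at -0.096, 0.060 and -0.14 across all genes, and at -0.37, 0.52 and -0.32 across the subunit genes. Correlations of deviations within groups of 3 arrays cannot decide this, and no pairing was assumed. With the replicate block, 4 subunit genes passed (Cox6b1, Cox6b2, Ndufb9 and, at an adjusted p of 0.0396, Ndufs4), and Cox5a (0.0616), Uqcr10 (0.0839) and Ndufv2 (0.086) did not.

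Differences near 0 changed sign. Leaving out 1 array gave -0.11 to 0.042 for Ndufs1, -0.023 to 0.045 for Ndufs7, -0.013 to 0.041 for Atp5b, -0.058 to 0.040 for Cox6a2, -0.016 to 0.086 for Cox8a, -0.0095 to 0.090 for Cox8b and -0.055 to 0.044 for Cox8c. Cox6a2 was -0.00094 with centred arrays and -0.0059 after repeated quantile normalisation. Atp5c1 lay between 0.012 and 0.093 with 1 array left out and at -0.0065 without both arrays that stood apart, where Cox8c was 0.0097. The cause of these changes was not tested. With 3 arrays per group, differences of about the size of the standard error (median 0.064 for the subunit genes) cannot be told from 0.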
